A study of Mus musculus with 9 samples.

Results

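The 10 genes Apoa1, Apoa2, Apoa4, Apoa5, Apob, Apoc1, Apoc3, Apoe, Apoh, and Apom, which encode apolipoproteins made by the liver, were taken by name from the 24341 gene rows of the deposited table, and all 10 passed the filter on low values that left 13807 genes for testing. Livers came from 9 wild-type (WT) C57BL/6 mice, 3 given the agonist CD40 antibody FGK45 (anti-CD40) and 6 given PBS as control, and were collected 48 hours after treatment. The labels give neither age nor sex, and the study's general methods describe mice of 8 to 12 weeks, matched by sex, unless stated otherwise. RNA of whole liver tissue was read from the 3′ end of transcripts, and each value is an FPKM, a fragment count scaled to transcript length and to the mapped reads of the library. Mice are called by the numbers on their labels, which are 2, 5, and 9 for anti-CD40 and 3, 4, 7, 8, 11, and 12 for control.

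Apolipoproteins are the protein part of the particles that carry lipid in blood. Apob is the scaffold of the triglyceride-rich particles (VLDL) that the liver secretes, while Apoa1 and Apoa2 are the main proteins of HDL, the particles that collect cholesterol. Smaller apolipoproteins move between particles and steer their fate, with Apoe binding the receptors that clear remnants, Apoc1 and Apoc3 slowing lipolysis and clearance, and Apoa5 promoting lipolysis by lipoprotein lipase. HDL is also the carrier of the acute-phase protein serum amyloid A, and liver inflammation is known for changes in what the hepatocyte secretes into plasma.

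Of the 10 genes, 6 fell, 2 rose, and 2 did not pass the test (limma, Benjamini-Hochberg adjusted p under 0.05). Apoc1, Apoa2, and Apoc3 were each more than 4 times lower after anti-CD40, Apoe was 3.47-fold lower, and Apoh and Apoa1 were 2.15-fold and 2.00-fold lower. Apoa4 was 2.87-fold higher and Apob was 1.67-fold higher. Apom, with a log2 fold change of 0.04, and Apoa5, with one of -0.35, did not pass. Of all genes tested, 21.7% were called lower and 23.5% were called higher, against 60% and 20% of these 10.

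Most of these genes also have high FPKM, and genes with high FPKM as a class were lower. FPKM divides by transcript length, with which 3′ reads do not scale, so this class favors short transcripts. Of 991 tested genes with a mean of at least 100 FPKM, 53.1% were called lower and 11.4% higher, and their median log2 fold change was -0.55. Of the 10 apolipoproteins, 8 lie in that range and 6 of the 8 were called lower. The median log2 fold change over the 10 was -1.05, beside 0.0056 over all genes tested.

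The promoters of 4 genes are printed because neighbors on chromosome 9 changed in opposite directions and because Apoa4 and Apob were the genes that rose, with Apoh as a gene that fell. Each is the 250 bases before the start site (RefSeq, build GRCm38.p6, plus strand for all 4), at chr9:46228380-46228629 for Apoa1, chr9:46240594-46240843 for Apoa4, chr12:7977427-7977676 for Apob, and chr11:108395047-108395296 for Apoh. Capitals mark matches to 1 of 5 motifs searched on both strands.
Apoa1: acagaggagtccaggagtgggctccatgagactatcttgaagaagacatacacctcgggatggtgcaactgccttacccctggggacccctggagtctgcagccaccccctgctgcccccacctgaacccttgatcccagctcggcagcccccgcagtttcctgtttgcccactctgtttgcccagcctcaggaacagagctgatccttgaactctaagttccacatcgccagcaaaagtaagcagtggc
Apoa4: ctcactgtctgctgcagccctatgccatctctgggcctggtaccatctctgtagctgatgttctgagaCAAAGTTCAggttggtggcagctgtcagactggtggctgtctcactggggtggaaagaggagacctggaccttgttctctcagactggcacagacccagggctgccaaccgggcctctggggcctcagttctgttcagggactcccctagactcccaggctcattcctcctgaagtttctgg
Apob: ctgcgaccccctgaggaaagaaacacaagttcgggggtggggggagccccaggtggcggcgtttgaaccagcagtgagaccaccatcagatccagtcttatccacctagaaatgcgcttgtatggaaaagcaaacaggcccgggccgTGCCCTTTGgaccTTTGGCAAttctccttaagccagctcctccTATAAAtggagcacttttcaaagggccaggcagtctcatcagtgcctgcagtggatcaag
Apoh: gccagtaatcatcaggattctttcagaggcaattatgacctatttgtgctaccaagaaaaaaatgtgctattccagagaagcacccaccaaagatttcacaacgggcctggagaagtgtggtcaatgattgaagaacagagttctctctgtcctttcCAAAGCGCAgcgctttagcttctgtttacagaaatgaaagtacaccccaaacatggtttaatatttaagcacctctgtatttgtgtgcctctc
The capitals in Apoa4, the first block in Apob, and those in Apoh match CAAAGNNCA, a core of sites of the hepatocyte nuclear factor HNF4, which occurs in 5.49% of 32817 promoters. In Apob the second block matches the C/EBP motif TTGCNNAA, found in 9.57% of promoters. The third block in Apob is a TATA box, TATAAA, found in 12.4%, and no match in these 4 windows overlaps another. Among the windows not printed, those of Apoa2 also held C/EBP matches, and those of Apoa2, Apoa5, and Apoe held TATA boxes. The Apoa1 window holds no match to any of the 5, which also included the STAT motif TTCNNNGAA (7.01% of promoters) and the NF-κB motif GGANTTTCC (1.07%). Among the 8 genes with a window, the HNF4 core was found at Apoa4 and Apob, which rose, and at Apoh, which fell. No window of Apoa1, Apoa2, or Apoe, which fell, or of Apoa5 or Apom held it. A match of letters is not a bound site, and a window without these exact letters may still hold a site. A link between motif and direction of change was not tested. Promoters of 8 of the 10 genes were matched by symbol, and Apoc1 and Apoc3, which both fell, had no window.

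Of the exchangeable apolipoproteins, Apoc1, Apoc3, and Apoe fell and Apoa5 did not pass. Apoc1 (chr7:19689480-19692659 in build mm10), an inhibitor of lipoprotein lipase and of remnant uptake, was at 6083, 6093, and 7021 FPKM in anti-CD40 mice 2, 5, and 9, and at 34238, 29286, 31010, 34402, 29005, and 28948 FPKM in control mice 3, 4, 7, 8, 11, and 12. Every anti-CD40 mouse was far below every control mouse, and the controls varied little, with a coefficient of variation of 8.25%, the lowest of the 10 genes. The mean was 6399 ± 539 FPKM (SD, n = 3) against 31148 ± 2571 FPKM (SD, n = 6), a 4.87-fold lower level with a 95% interval from 3.94 to 6.00 and a log2 fold change of -2.28 ± 0.14 (SE; limma adjusted p = 1.19e-06).

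Apoc3 (chr9:46233050-46235636), which restrains lipolysis and the hepatic uptake of triglyceride-rich particles, was at 2326, 2357, and 3131 FPKM after anti-CD40 and at 13127, 7956, 10749, 13360, 11393, and 12614 FPKM in controls. The groups were apart, and control mouse 4 was the lowest control by a wide margin. Apoc3 was 4.41-fold lower (95% interval 3.29 to 5.90; log2 fold change -2.14 ± 0.19 SE, limma adjusted p = 1.21e-05).

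Apoe (chr7:19696244-19699188), the receptor ligand on remnants and a product of both hepatocytes and macrophages, was at 1834, 2270, and 2475 FPKM after anti-CD40 and at 7611, 4320, 6687, 8840, 8491, and 11231 FPKM in controls. Control mouse 4 was again the lowest control and control mouse 12 the highest, and all anti-CD40 mice were below all controls. Apoe was 3.47-fold lower (95% interval 2.32 to 5.19; log2 fold change -1.79 ± 0.26 SE, limma adjusted p = 3.09e-04). In the same livers, 7 of 7 Kupffer cell marker genes were called lower, with a summed level of 40.5 to 52.9 FPKM against 290 to 461 FPKM, while 7 of 9 monocyte and macrophage markers were called higher, with 336 to 447 FPKM against 61.9 to 96.5 FPKM. The part of either cell type in the fall of Apoe was not tested.

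Apoa5 (chr9:46268608-46271919), which helps lipoprotein lipase act on circulating triglyceride, was at 422, 447, and 462 FPKM after anti-CD40 and at 595, 468, 528, 481, 628, and 720 FPKM in controls. The groups did not overlap, though anti-CD40 mouse 9 and control mouse 4 were close. The log2 fold change of -0.35 ± 0.15 (SE) did not pass the test across genes (limma adjusted p = 0.0795), with a 95% interval from -0.67 to -0.02. It passed without control mouse 4 (log2 fold change -0.40, limma adjusted p = 0.0366), and its sign turned with the scaling, as given below.

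Among the HDL proteins the changes were unequal. Apoa2 (chr1:171213970-171226379) was at 4839, 5993, and 5968 FPKM after anti-CD40 and at 27334, 16832, 24026, 29829, 28153, and 28478 FPKM in controls. Control mouse 4 stood below the other controls and still at more than every anti-CD40 mouse. Apoa2 was 4.55-fold lower (95% interval 3.35 to 6.17; log2 fold change -2.18 ± 0.20 SE, limma adjusted p = 1.40e-05). The deposited table gives Apoa2 the same locus as Nr1i3, the nuclear receptor CAR, and Tomm40l, a mitochondrial import protein. Both had values of their own and were also called lower (log2 fold changes -2.38 and -0.92, the latter call lost at -0.17 when centered on hepatocyte markers), and how reads of the locus were divided among the 3 genes is not given in the sources used here.

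Apoa1 (chr9:46228630-46230469), the structural protein of HDL and activator of the enzyme LCAT, was at 1075, 1674, and 1411 FPKM after anti-CD40 and at 1778, 2622, 2476, 2103, 3018, and 5561 FPKM in controls. The groups did not overlap, but anti-CD40 mouse 5 and control mouse 3 were close, and control mouse 12 was far above the other controls. The control coefficient of variation was 46.5%, the largest of the 10. Apoa1 was 2.00-fold lower (95% interval 1.23 to 3.23; log2 fold change -0.997 ± 0.31 SE, limma adjusted p = 0.0248). Apoa1 no longer passed when anti-CD40 mouse 2 was left out (log2 fold change -0.82, limma adjusted p = 0.113) or mouse 9 (-1.02, limma adjusted p = 0.0629), and still passed without control mouse 12 (-0.79, limma adjusted p = 0.0108).

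Apom (chr17:35128997-35131752), the HDL protein that carries sphingosine-1-phosphate, was at 790, 825, and 1126 FPKM after anti-CD40 and at 846, 963, 828, 985, 771, and 886 FPKM in controls. It was the only 1 of the 10 genes whose groups overlapped. The mean was 913 ± 185 FPKM (SD, n = 3) against 880 ± 82.1 FPKM (SD, n = 6), with a log2 fold change of 0.04 (95% interval -0.27 to 0.35; limma adjusted p = 0.835; exact permutation p = 0.738).

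Apoh (chr11:108395297-108414396), also called beta-2-glycoprotein I, binds anionic phospholipids and is the main target of antiphospholipid antibodies. It was at 707, 760, and 971 FPKM after anti-CD40 and at 1655, 1399, 1619, 1848, 1907, and 2042 FPKM in controls. All 3 anti-CD40 mice were below the lowest control, mouse 4. Apoh was 2.15-fold lower (95% interval 1.70 to 2.72; log2 fold change -1.10 ± 0.15 SE, limma adjusted p = 2.20e-04).

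The genes that rose were Apoa4 and Apob, which mouse liver and intestine both make. Apoa4 (chr9:46240844-46243458), a protein of HDL and triglyceride-rich particles, was at 48.1, 49.0, and 50.6 FPKM after anti-CD40 and at 23.6, 8.72, 13.2, 21.2, 19.7, and 22.0 FPKM in controls. The anti-CD40 mice were nearly equal and all above the highest control, and control mouse 4 was the lowest. Apoa4 was 2.87-fold higher (95% interval 1.84 to 4.46; log2 fold change 1.52 ± 0.29 SE, limma adjusted p = 0.00158).

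Apob (chr12:7977677-8016839) was at 17.8, 24.3, and 18.2 FPKM after anti-CD40 and at 15.0, 10.8, 10.1, 16.9, 9.33, and 10.9 FPKM in controls. Anti-CD40 mouse 2 and control mouse 8 were close, and anti-CD40 mouse 5 was the highest. Apob was 1.67-fold higher (95% interval 1.22 to 2.28; log2 fold change 0.74 ± 0.20 SE, limma adjusted p = 0.0132). With anti-CD40 mouse 5 left out, Apob did not pass (log2 fold change 0.59, limma adjusted p = 0.0699), and the count of apolipoproteins called higher was then 1. That liver had a summed level of 1058 FPKM over 10 exocrine pancreas markers, against 27.9 and 33.3 FPKM in the other anti-CD40 mice and 70.5 to 190 FPKM in controls, and the part of this in the value of Apob was not tested. The 10 small intestine markers summed to 68.9 to 78.1 FPKM after anti-CD40 and 48.6 to 98.8 FPKM in controls. Of these, 7 were too low to test, with at most 0.193 FPKM in any mouse, Sis, Lct, and Cdx2 among them. Of the 3 tested, Reg3g (log2 fold change 4.22) and Anpep (0.65) were called higher, and Fabp2 (-0.20, with its sign turning under 3 other scalings) did not pass. The call of Reg3g was lost without anti-CD40 mouse 2 or 5 (limma adjusted p = 0.130 and 0.127) and that of Anpep without mouse 2 or 9 (limma adjusted p = 0.0636 and 0.0646). Their part in the rise of Apoa4 and Apob was not tested.

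**Figure D1:**
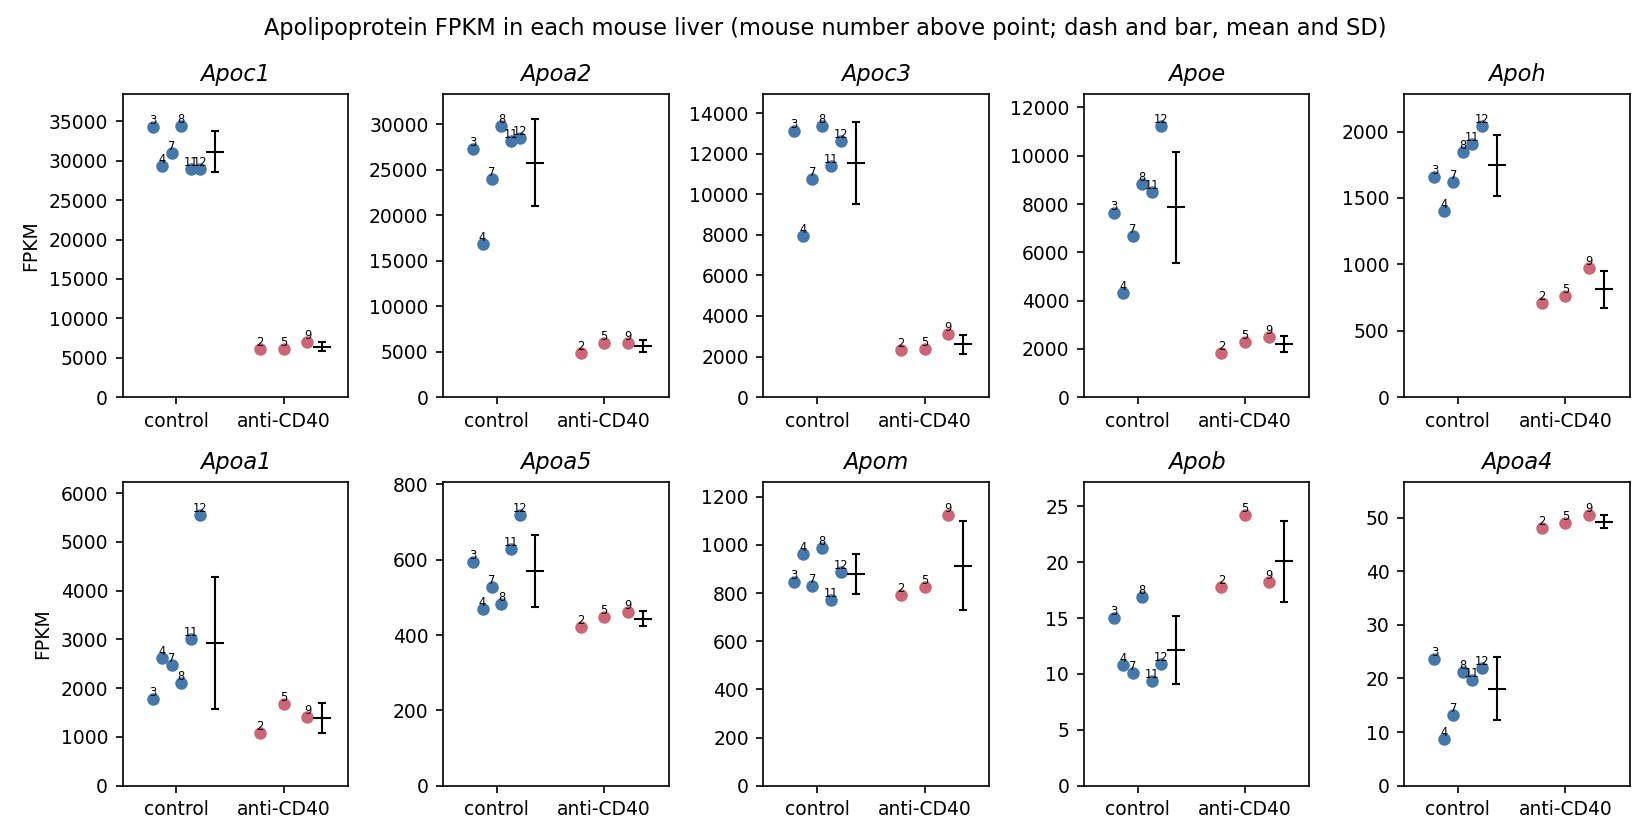
FPKM (linear axis from 0, own scale per gene) of each of the 10 apolipoproteins in the 6 control (blue) and 3 anti-CD40 (red) livers, with the mouse number above each point and the mean and SD beside them. Points of the groups are apart for every gene except Apom, as for Apoc1 at 6083 to 7021 FPKM against 28948 to 34402 FPKM, and control mouse 12 stands above the other controls in Apoa1 at 5561 FPKM.

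Thus 7 of the 10 genes had every anti-CD40 mouse below every control, beside 19.6% of all genes tested, and 2 had every anti-CD40 mouse above, beside 22.7%. The exact permutation p was 0.0238 for each of these 9, the smallest that 3 mice against 6 allow. Within the anti-CD40 group, mouse 2 was the lowest in 10 of 10 genes, including those that rose, and mouse 9 was the highest in 7. Among controls, mouse 4 was the lowest in 6 genes. Its summed level over erythroid markers was 50532 FPKM, against 7494 to 13469 FPKM in the other controls, and the part of this in its low values was not tested. The 10 genes together held from 1.84% to 2.35% of all FPKM in anti-CD40 mice and from 7.13% to 9.58% in controls.

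**Figure D2:**
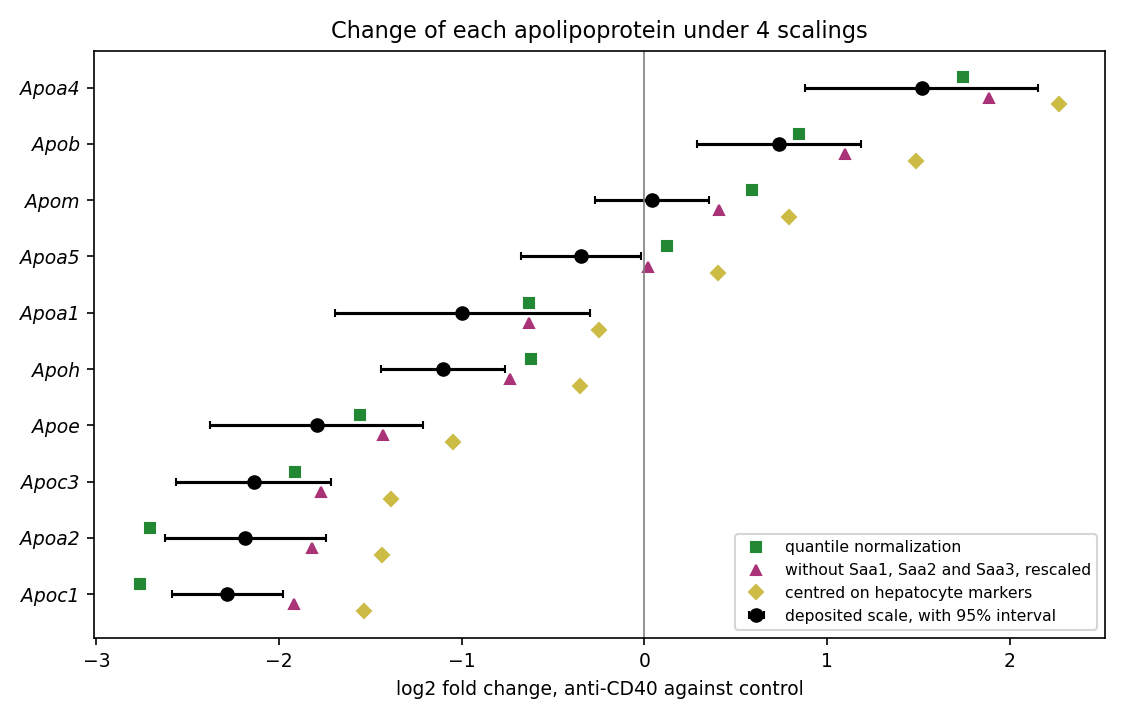
Log2 fold change of each apolipoprotein, anti-CD40 against control (x axis), on the deposited scale with its 95% interval (black) and after 3 other scalings (colored symbols without intervals). The order is much the same under each, from Apoc1 and Apoa2 at the low end to Apoa4 at 1.52 to 2.27, while Apoa5 moves from -0.35 to 0.12, 0.02, and 0.40 and so changes sign.

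The direction of a modest change depended on the scale. Serum amyloid genes Saa1, Saa2, and Saa3 held between 25.4% and 25.9% of all FPKM in anti-CD40 mice and between 0.0449% and 0.380% in controls. When they were removed and the rest rescaled, the median of all genes shifted to a log2 fold change of 0.35, and when values were centered on 15 hepatocyte marker genes it shifted to 0.76. Under these 2 scalings and under quantile normalization, Apoa1 kept its negative sign without passing the test (log2 fold changes -0.63, -0.25, and -0.63). Under the same 3, Apoa5 turned positive and Apom was called higher (0.41, 0.79, and 0.59). Of these 3, only centering made Apoa5 called higher (0.40, limma adjusted p = 0.0249). Relative to the median of all genes, the centered values were -1.002 for Apoa1, -0.35 for Apoa5, and 0.03 for Apom. Apoa2, Apoc1, Apoc3, Apoe, and Apoh were called lower and Apoa4 and Apob higher under all 3.

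The liver label was checked against 15 hepatocyte markers, which summed to 26196 to 29559 FPKM in anti-CD40 mice and 24108 to 44388 FPKM in controls. Of these, 9 were called lower, among them the plasma proteins albumin (Alb, log2 fold change -2.43) and transthyretin (Ttr, -1.96), and 3 were called higher (Trf, Fgb, and Krt18, with the call of Trf lost without any 1 anti-CD40 mouse, control mouse 3, or control mouse 7), with a median of -0.94, near the -1.05 of the apolipoproteins. All 7 neutrophil markers and 8 of 9 lymphocyte markers were called higher, as were 2 of 5 cholangiocyte markers, 1 of 9 pancreas markers, and 2 of 3 small intestine markers that could be tested. Of 10 endothelial and stellate cell markers, 3 were called higher and 4 lower, and of 6 erythroid markers 0 were called by limma and 0 had an unadjusted p under 0.05. The part of these cells in the changes of the apolipoproteins was not tested. In whole tissue, fewer hepatocytes and less RNA per hepatocyte cannot be told apart.

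Several of the genes lie side by side, which lets neighbors be compared within the same liver by the ratio of their FPKM. Multiplying a whole library by a common factor does not change this ratio, though quantile normalization can. A change in such a ratio compares changes, not levels, since levels per length are not comparable between genes in 3′ data. The ratios of 8 pairs were compared by exact permutation tests, with p-values adjusted over the 8, and 6 passed. For Apoa4 to Apoa1, Apoe to Apob, and Apoc3 to Apob, both genes had already separated the groups, in opposite directions. Their ratios could not then overlap, so these tests add nothing to the results of the single genes.

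Within the 43290 bases that hold Apoa1, Apoc3, Apoa4, and Apoa5 on chromosome 9, the ratio of Apoa4 to Apoa1 rose by 2.52 on the log2 scale (adjusted exact p = 0.0317), with every anti-CD40 mouse above every control. The ratio of Apoc3 to Apoa1 fell by 1.14 (adjusted exact p = 0.0317), so Apoc3 fell more than Apoa1. The ratio of Apoa5 to Apoa1 changed by 0.65, with overlapping groups and an adjusted exact p of 0.0816, and passed without control mouse 3 (0.79, adjusted exact p = 0.0408). Outside the cluster, the nearest tested genes Sik3 (log2 fold change -0.25) and Zpr1 (-0.04) did not pass, and Pafah1b2 rose by 0.31, a call lost without anti-CD40 mouse 2 or mouse 9 (limma adjusted p = 0.120 and 0.0617). The adhesion gene Cadm1, the farthest of these, fell by 0.73 on the deposited scale and was at 0.0167 when centered on hepatocyte markers, where Sik3 and Zpr1 were called higher (0.50 and 0.71).

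In the cluster on chromosome 7, Apoc1 and Apoe lie within 9709 bases, and their ratio changed by -0.49 (adjusted exact p = 0.143, passing without control mouse 12 at -0.62, adjusted exact p = 0.0408). Their neighbors Apoc4 and Apoc2 moved in opposite directions. Apoc4 was at 1153, 1309, and 1064 FPKM after anti-CD40 and at 3614 to 4582 FPKM in controls (log2 fold change -1.76, limma adjusted p = 2.92e-06). Apoc2, the obligate activator of lipoprotein lipase, was at 1454, 1552, and 1942 FPKM against 618, 350, 599, 613, 270, and 576 FPKM (log2 fold change 1.77, limma adjusted p = 4.96e-04). Control mice 4 and 11, the lowest in Apoc2, were the mice in which a read-through row of Apoc4 and Apoc2 at the same locus held 240 and 314 FPKM, beside at most 1.61 FPKM elsewhere. With that row added, the controls lay between 576 and 619 FPKM and the log2 fold change of Apoc2 was 1.46. On the other side, Tomm40 (-0.46) did not pass, and passed without control mouse 8 (-0.54, limma adjusted p = 0.0274). Pvrl2, a nectin, passed narrowly at 0.66 (limma adjusted p = 0.0457), and its call was lost without any 1 anti-CD40 mouse or without control mouse 3, 7, or 8 (limma adjusted p = 0.0632 to 0.124).

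**Figure D3:**
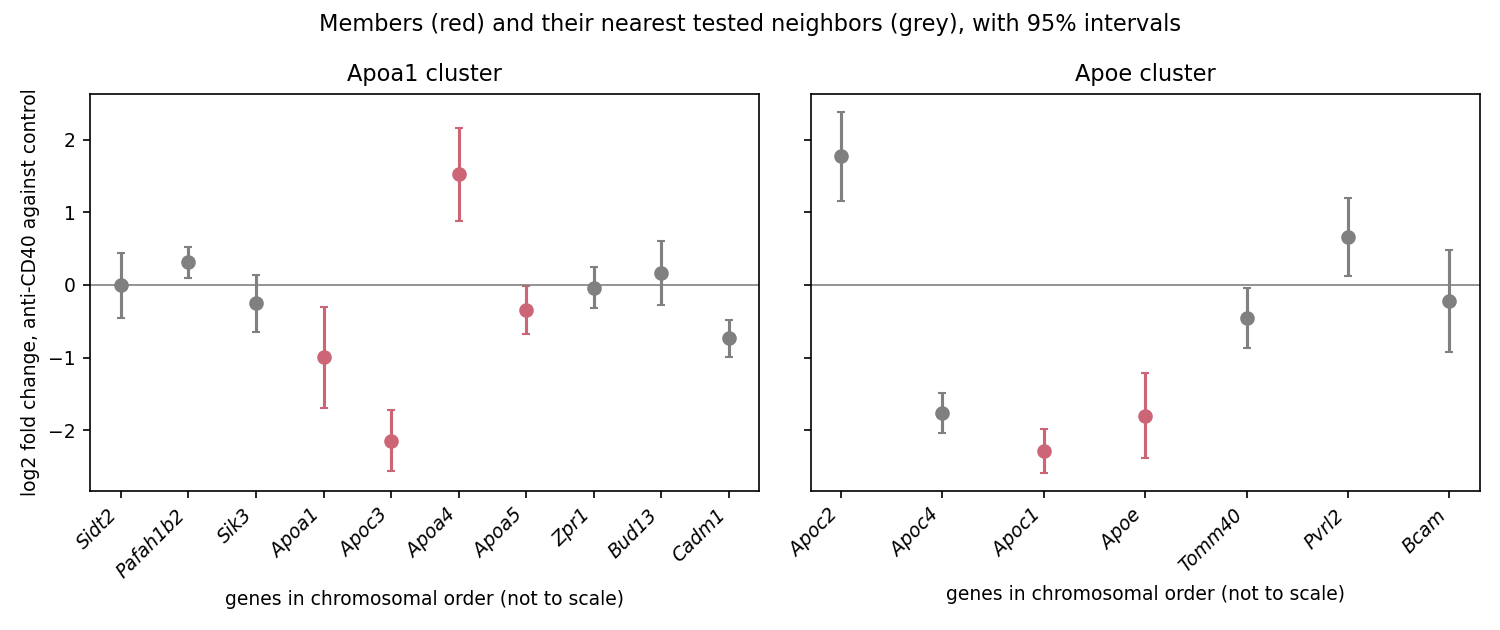
Log2 fold change, anti-CD40 against control (y axis, with 95% intervals), of the apolipoprotein genes (red) and the nearest tested genes (grey) in chromosomal order, not to scale, on chromosome 9 (left) and 7 (right). The read-through row of Apoc4 and Apoc2, also among the nearest tested rows, is not drawn. Apoa4 at 1.52 stands between Apoc3 at -2.14 and Apoa5 at -0.35, and Apoc2 at 1.77 stands beside Apoc4 at -1.76.

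Between particle proteins on different chromosomes, the ratio of Apoe to Apob fell by 2.53 and that of Apoc3 to Apob by 2.88 on the log2 scale (adjusted exact p = 0.0317 for both). The ratio of Apoa2 to Apoa1 fell by 1.19 and that of Apom to Apoa1 rose by 1.04 (adjusted exact p = 0.0317 for both), with no overlap of the groups. The HDL genes therefore did not change by equal amounts.

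Other apolipoproteins were measured in 12 genes, of which 5 rose, 3 fell, and 4 did not pass, with a median log2 fold change of 0.44. Besides Apoc2, those that rose included Apol10b (3.62), Apod (1.26), a lipocalin-type carrier, and the constitutive serum amyloid gene Saa4 (1.08), whose call was lost without any 1 of the 3 anti-CD40 mice. Apod was near the floor, at 0.160 to 0.315 FPKM after anti-CD40 and at most 0.107 FPKM in controls. Its log2 fold change ranged from 0.25 to 2.49 over the alternatives in which it was tested. Besides Apoc4, Apol7a (-1.65) and Apol9b (-0.63) fell, the latter turning to 0.12 when centered on hepatocyte markers. Near-identical copies exist among the Apol genes, so their values are uncertain.

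Of 22 genes of lipoprotein assembly and secretion, 10 fell, 2 rose, and 10 did not pass, with a median log2 fold change of -0.37. The decreases were led by the lipid droplet hydrolase Ces1d (-3.08), the droplet protein Fitm1 (-2.83), Cideb (-1.84), which loads lipid onto VLDL, and the deacetylase Aadac (-1.53). The groups overlapped for Cideb, with anti-CD40 mouse 9 at 30.7 FPKM and control mouse 4 at 30.5 FPKM. The droplet coat protein Plin2 rose by 1.29 and Apobec1, the enzyme that edits Apob mRNA, by 1.14. Chosen after their values were seen, Mttp, the transfer protein that lipidates nascent Apob, was at -0.07 (limma adjusted p = 0.794; 0.68 and called higher when centered on hepatocyte markers), and A1cf, the partner of Apobec1, fell by 0.72 on the deposited scale and was at 0.03 when so centered.

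Of 15 genes of HDL formation and remodeling, 8 fell, 2 rose, and 5 did not pass (median -0.54). The paraoxonase Pon1, an enzyme carried on HDL, fell by 2.72 on the log2 scale, the sterol exporters Abcg8 and Abcg5 by 2.37 and 1.98, and hepatic lipase, Lipc, by 1.57. The cholesterol exporters that load HDL rose, Abcg1 by 1.18 and Abca1 by 0.66. The call of Abca1 was lost without anti-CD40 mouse 5 (0.53, limma adjusted p = 0.0768).

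Of 12 receptors and uptake genes, 4 rose, 2 fell, and 6 did not pass (median -0.22). The scavenger receptors Olr1 (3.44) and Msr1 (1.03) and the lipoprotein receptor family members Sorl1 (2.56) and Lrp8 (2.21) rose. Controls held at most 0.201 FPKM of Olr1, Sorl1, and Lrp8. Vldlr, a receptor for triglyceride-rich particles that bind Apoe, fell by 2.36. It was also low, at 0.112 to 0.135 FPKM after anti-CD40 and 0.256 to 1.94 FPKM in controls. Its log2 fold change ranged from -2.95 to -0.92 over the alternatives in which it was tested. Lrpap1, a chaperone of lipoprotein receptors, passed at -0.44 with overlapping groups on the deposited scale (limma adjusted p = 0.0363). Lrpap1 was called higher at 0.31 when centered on hepatocyte markers. Its call was lost without the serum amyloid genes and without anti-CD40 mouse 2 or 5 or control mouse 7, 8, 11, or 12 (limma adjusted p = 0.0526 to 0.136 with 1 of these mice left out).

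Of 10 genes of lipolysis and its regulation, 4 fell, 1 rose, and 5 did not pass (median -0.66). Mgll, a monoglyceride lipase, fell by 1.39 with overlapping groups. The lysosomal lipase Lipa fell by 0.77 and the lipase cofactor Abhd5 by 0.70, the last turning to 0.05 when centered on hepatocyte markers. Gpihbp1, which anchors lipoprotein lipase on capillaries, fell by 0.47 on the deposited scale, did not pass under the 3 other scalings, and turned to 0.28 when centered. The call of Mgll was lost without anti-CD40 mouse 2 (-1.18, limma adjusted p = 0.0856) and without the serum amyloid genes, and those of Mgll and Lipa were lost when centered on hepatocyte markers. Lipoprotein lipase, Lpl, rose by 1.68 on the log2 scale with overlapping groups, and its call was lost without any 1 anti-CD40 mouse (limma adjusted p = 0.0523 to 0.0940).

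Of 26 transcription factors known to act on apolipoprotein genes, 9 fell and 17 did not pass (median -0.36). None was called higher by limma, and 0 had a positive change with an unadjusted p under 0.05. The lipid synthesis factors Srebf1 (-2.54) and Mlxipl (-1.60), the clock receptor Nr1d1 (-2.27), and Cebpa (-1.49), the C/EBP factor of mature hepatocytes, led the decreases, all still lower under the 3 other scalings. Chosen after its value was seen, Hnf4a, which binds many apolipoprotein promoters, was at -0.44 (limma adjusted p = 0.139; 0.31 when centered on hepatocyte markers).

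**Figure D4:**
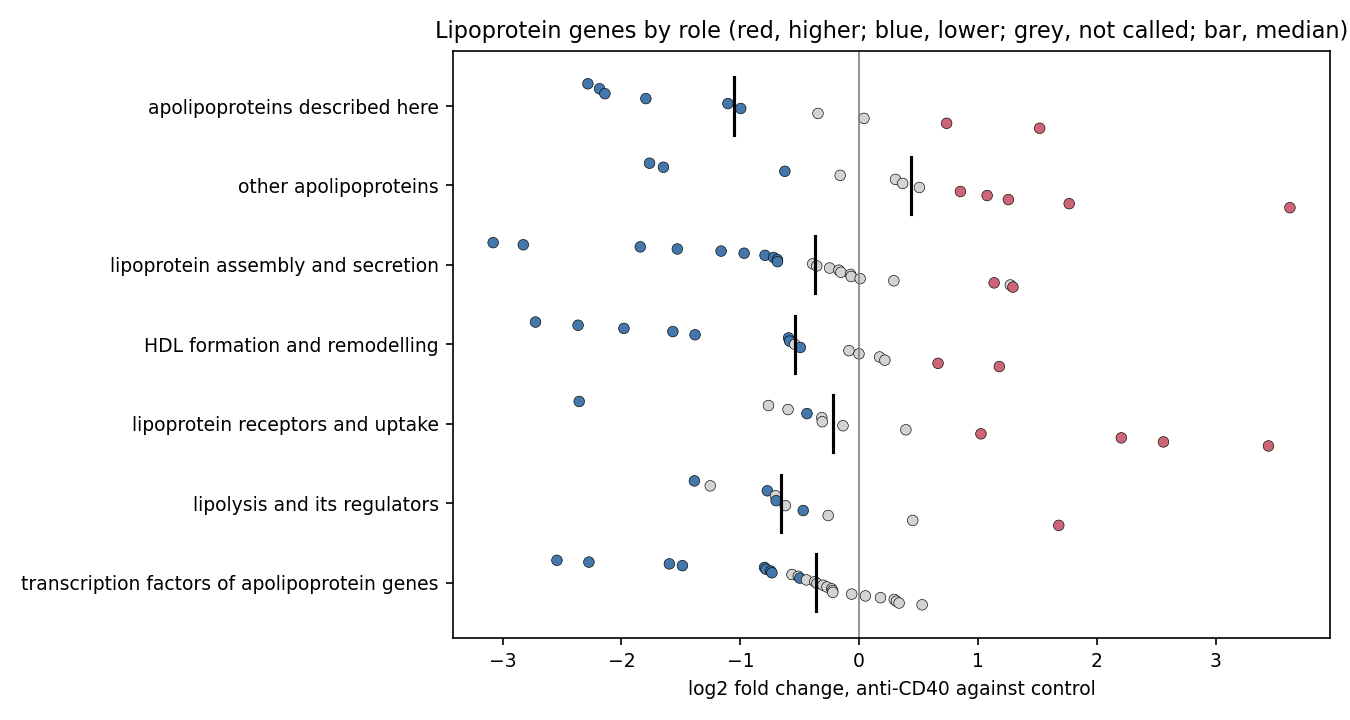
Log2 fold change, anti-CD40 against control on the deposited scale (x axis), of each tested gene by role, with genes called higher in red, called lower in blue, and not called in grey, and a bar at each median. The 10 apolipoproteins have a median of -1.05, the other apolipoproteins 0.44, and the 5 other groups lie between -0.66 and -0.22, while small changes of the opposite sign appear when centered on hepatocyte markers, as for Abhd5 and Gpihbp1.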

How the data were processed

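Bulk liver RNA of 9 mice was sequenced by the authors with the QuantSeq 3′ FWD kit on a NextSeq 500. Per the labels, reads were aligned to mm10 with STAR and quantified with Cufflinks and Cuffdiff, and the authors deposited 1 FPKM table with a floor of 0.01. The annotation and the filter are not given in the sources used here. FPKM divides by transcript length although 3′ reads do not scale with it, so levels of single genes were not compared with each other. The class of genes with a mean of at least 100 FPKM and the shares of all FPKM do depend on transcript length. Read totals were not used here, and relative depth from the steps of low values ranged from 0.870 to 1.13, so the precision of low genes is limited by counting. No column was left unused, and no pair of mice held identical values.

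Genes with a failed estimate (15) were left out, and the 13807 with a mean of at least 0.1 FPKM were tested as log2(FPKM + 0.1) with limma 3.58.1 in R 4.3.3 (lmFit, eBayes with a trend, 2-sided, Benjamini-Hochberg adjustment over all genes). Fold changes are on that scale, which understates changes of low genes. Single values and log2 ratios were tested by 2-sided exact permutation over the 84 ways to choose 3 of 9 mice. Start positions are counted from 1. Python 3.11.15, numpy 2.4.6, pandas 2.3.3, scipy 1.17.1, and matplotlib 3.10.9 did the rest, and the fit was tested on simulated data.

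The 10 genes, the 6 pathway lists, the 10 marker lists, and the motifs were compiled from general knowledge with earlier results of these data known. All 10 genes are named, and from each pathway list at most 4 genes called in each direction, by size of change. Of 191 list entries, 190 were in the table, 1 under an older symbol, and 4 further genes are not reported here. Mice were grouped by their labels, and each mouse is 1 sample. Alternatives were pseudocounts of 1 and 0.01, other filters, 4 scalings, other limma settings, stricter thresholds, and leaving out each mouse.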

Additional observations from a re-analysis of the deposited data

Results flagged for a closer look

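The FPKM of Apoa1 in the 6 control mice held 1 value far from the others. Control mouse 12 was at 5561 FPKM, and its gap to the next control made up 0.672 of the range of the group. That is above the 95% critical value of Dixon's test for 6 samples. The gap was measured on linear FPKM, where high values lie farther apart than on the log2 scale of the fits. Among 18 sets of 6 control values tested this way, chance would give about 0.9, and 1 was found. Mouse 12 was the highest control in 4 of the 10 apolipoproteins, and its summed hepatocyte markers, 44388 FPKM, were the highest of the 9 livers. Without it, Apoa1 was still called lower after anti-CD40, with a log2 fold change of -0.79 (limma adjusted p = 0.0108).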

How the results depend on the processing

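No paired analysis was possible because the labels give the groups no shared mouse number. Apoa2, Apoa4, Apoc1, Apoc3, Apoe, and Apoh kept their direction and their call in all 22 alternatives run for each. The log2 fold changes ranged from -2.71 to -1.43 for Apoa2, 1.33 to 2.27 for Apoa4, and -2.76 to -1.53 for Apoc1. They ranged from -2.28 to -1.39 for Apoc3, -1.96 to -1.05 for Apoe, and -1.24 to -0.35 for Apoh. The smallest change of Apoh, -0.35, was that when centered on hepatocyte markers (limma adjusted p = 0.0232). The other results moved as follows, and the cause was not tested. Genes called higher, 3240 on the deposited scale, came to 5635 without the serum amyloid genes, 8542 when centered on hepatocyte markers, and 1889 with a 2-fold threshold, and genes called lower, 2990, came to 1647, 755, and 1253. Of all calls, 52.0% were higher on the deposited scale, 77.4% without the serum amyloid genes, and 91.9% when centered. Apolipoproteins called higher, 2, came to 4 when centered, 1 with an adjusted p under 0.01, and 1 with a 2-fold threshold, and ranged from 1 to 2 with 1 mouse left out, with 1 without anti-CD40 mouse 5. Those called lower ranged from 5 to 7. The median of the 10, -1.05, came to -0.63 with quantile normalization, -0.68 without the serum amyloid genes, and -0.30 when centered, and ranged from -1.13 to -0.92 with 1 mouse left out. Centering turned Apoa5 to 0.40, Apol9b to 0.12, Lrpap1 to 0.31, Gpihbp1 to 0.28, Abhd5 to 0.0513, Mttp to 0.68, and A1cf to 0.0295. It also turned Sik3 to 0.50, Zpr1 to 0.71, Cadm1 to 0.0167, Tomm40 to 0.29, Hnf4a to 0.31, and Fabp2 to 0.55. Leaving out the serum amyloid genes turned Zpr1 to 0.33, Mttp to 0.29, Fabp2 to 0.16, Sik3 to 0.11, and Apoa5 to 0.02. Array weights put Apoa5 past the threshold (-0.36, limma adjusted p = 0.0207). The sum of Apoc2 with its read-through row was chosen after seeing the data. Leaving out 1 anti-CD40 mouse allows no exact permutation p of a ratio that passes after adjustment, so only their values were computed.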
